A study of Mus musculus with 14 samples.

Results

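Cycling brain endothelial nuclei are the brain endothelial cell (EC) nuclei that held RNA of the cell division machinery. They were selected on their UMIs: a nucleus labelled EC by the authors was a member when it held at least 1 UMI, summed over *Mki67*, *Top2a*, *Aspm* and *Kif11*. The rule took 1113 of 5419 EC nuclei, and these are 1113 of the 31324 brain nuclei and of the 109000 brain and retina nuclei in the series. The remaining 4306 EC nuclei are called other ECs.

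The study asked what the loss of the TGF-beta receptor gene *Tgfbr1* from ECs does to the vasculature of the mouse retina and brain. Brain nuclei came from vascular fragments and were profiled by snRNAseq, with 1 control and 1 CKO library. CKO mice were *Cdh5CreER;Tgfbr1 CKO/-*, in which a Cre driven by the EC gene *Cdh5* was activated with 4-hydroxytamoxifen (4HT) between postnatal days 3 and 5, so that recombination was aimed at ECs alone. Whether control mice received 4HT is not stated in the sources read. Controls are labelled wild type. For control retinas the paper gives a phenotypically WT genotype, typically with *Cdh5CreER* and a heterozygous CKO allele of *Tgfbr1* or *Tgfbr2*. The paper also calls the brain controls phenotypically WT, but whether they had these alleles is not stated. Each brain library pooled a pair of brains. The methods place the mice at postnatal day 14, whereas the labels say young adult. Genotype cannot be told apart from library and animals in this design, and only in part from sex. No test between genotypes was made, and every interval below is a 95% interval for counting error only. UMIs of 1 nucleus are not independent, so these intervals are too narrow.

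A dividing cell copies its DNA in S phase, prepares for division in G2, and condenses and separates its chromosomes in mitosis. The 4 genes of the rule serve the later steps: *Mki67* encodes a protein that coats mitotic chromosomes, *Top2a* the topoisomerase that untangles replicated DNA, *Aspm* a spindle pole protein and *Kif11* the kinesin motor that pushes spindle poles apart. Brain capillaries grow by EC division in the first postnatal weeks, after which ECs of the healthy brain rarely divide.

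The control library held 49798325 UMIs in 16649 nuclei, and the CKO library 31033373 UMIs in 14675 nuclei. Only 2 barcodes occurred in both libraries, and neither was an EC barcode in both. UMIs of sex-linked genes differed between the libraries. In the control library, 1287 EC nuclei had an *Xist* UMI and none of the Y-linked genes *Ddx3y*, *Uty*, *Kdm5d* and *Eif2s3y*, 324 had the reverse and 285 had both, whereas in the CKO library 1407 of 2944 EC nuclei had a Y-linked UMI without *Xist* and 1 had *Xist* without a Y-linked UMI.

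In the control library 271 of 2475 EC nuclei were members, or 10.9% (9.75 to 12.2%). In the CKO library 842 of 2944 were members, or 28.6% (27.0 to 30.3%). The share was thus 2.61 times as large in the CKO library (2.30 to 2.96). Deeper nuclei are likelier to hold a UMI of any gene, so the share was also computed as its expectation after drawing 1000 UMIs from each nucleus. It was then 8.19% for control and 21.7% for CKO nuclei, a ratio of 2.65, with 1005 and 1055 shallower EC nuclei left out. Within each of the 5 bands of depth examined the CKO share was higher, from 14.9% against 5.05% in nuclei under 500 UMIs to 51.9% against 23.8% in nuclei of 4000 UMIs or more. Among control ECs the share was 10.3% in nuclei with *Xist* and no Y-linked UMI and 11.4% in nuclei with a Y-linked UMI and no *Xist*, and the intervals of these shares, 8.65 to 12.04% and 8.17 to 15.4%, overlapped. In a comparison chosen after seeing the data, among nuclei with a Y-linked UMI and no *Xist* 37 of 324 control ECs (11.4%) were members, against 514 of 1407 CKO ECs (36.5%), and the ratio was 3.20 (2.34 to 4.37). These nuclei were deeper in the CKO library, with medians of 2924 against 2059 UMIs, and at 1000 UMIs the shares were 8.64% and 22.3%.

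Members were deeper than other ECs. The median was 2861 UMIs in control members and 1251 in other control ECs, against 2599 in CKO members and 1238 in other CKO ECs. Members held 19.1% of EC UMIs for control and 42.3% for CKO nuclei.

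*Top2a* chose most members. In the control library *Top2a* was found in 216 members, *Mki67* in 108, *Aspm* in 63 and *Kif11* in 60. In the CKO library *Top2a* was found in 693, *Mki67* in 360, *Kif11* in 211 and *Aspm* in 146. The level over all ECs of a library, as CPM (UMIs of a gene over all UMIs, times 1e6), was 115 in control and 243 in CKO for *Top2a*, 35.0 and 80.1 for *Mki67*, 14.3 and 25.5 for *Aspm*, and 16.4 and 40.4 for *Kif11*. All 4 values were higher in the CKO library. Within the members the levels of *Top2a* and *Mki67* were close in both libraries, at 601 and 576 CPM and at 184 and 190 CPM. *Aspm* was at 75.0 CPM in control members and 60.5 CPM in CKO members. These values chose the members and are given as a description. On the GRCm39 build *Top2a* lies on chromosome 11 (chr11:98883769-98915062), *Mki67* on chromosome 7 (chr7:135291513-135318299), *Aspm* on chromosome 1 (chr1:139382486-139421829) and *Kif11* on chromosome 19 (chr19:37364799-37410307), so no chromosome was shared among them.

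Members just inside the threshold, with 1 UMI of the 4 genes, numbered 131 for control and 330 for CKO nuclei. Another 61 and 252 held 2 or 3 UMIs, and 79 and 260 held 4 or more, up to 37 for control and 19 for CKO nuclei. UMIs of at least 2 different genes of the rule were present in 108 control members and 382 CKO members, 39.9% and 45.4% of them.

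The G2/M list, which holds 51 genes once the rule genes are left out, stood at 1177 CPM in control ECs with no rule UMI, the nuclei just outside the threshold. It stood at 1988 CPM in those with 1 UMI, 3593 CPM in those with 2 or 3 and 6378 CPM in those with 4 or more. In the CKO library the same steps were 1558, 2468, 3819 and 5688 CPM. The list therefore rose at every step in both libraries, and nuclei chosen by a single UMI lay nearer to the other ECs than to members with 4 or more.

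**Figure D1:**
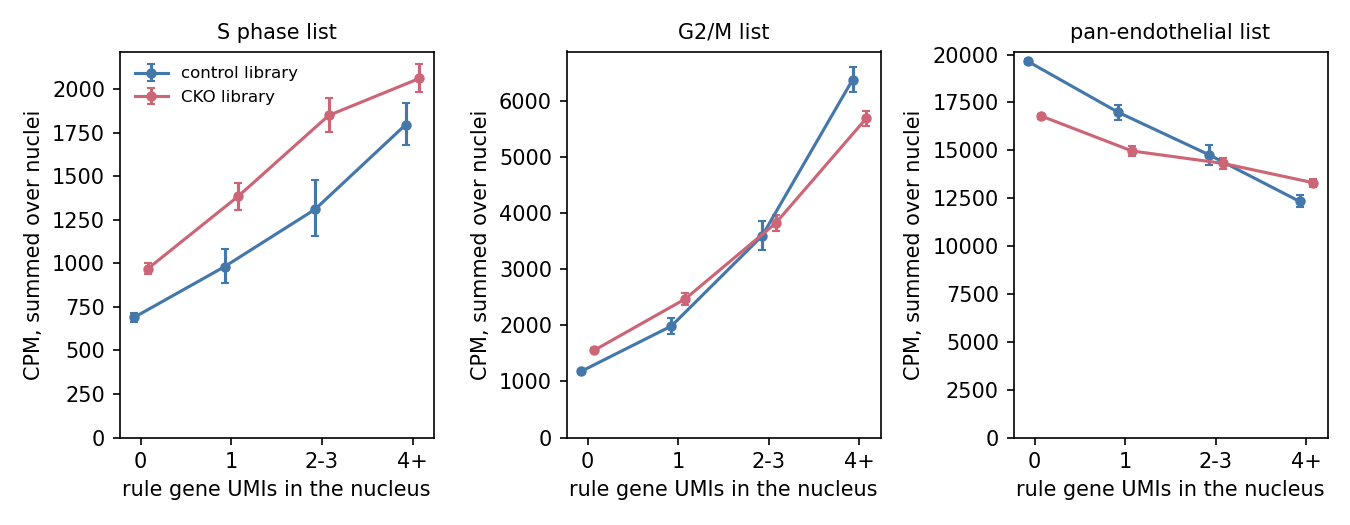
Summed level (CPM, y axis) of the S phase, G2/M and pan-endothelial lists in EC nuclei with 0, 1, 2 to 3 and at least 4 UMIs of the rule genes (x axis), for the control and the CKO library. Bars are 95% Poisson intervals of the summed UMIs. The G2/M list goes from 1177 to 6378 CPM in the control and from 1558 to 5688 CPM in the CKO library, while the pan-endothelial list falls.

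Neurons, which should not divide, gave a background for the rule. Neurons held a UMI of the 4 genes in 78 of 8229 control nuclei (0.948%) at a median of 2380 UMIs, and in 26 of 8366 CKO nuclei (0.311%) at a median of 1847 UMIs, although they were deeper than ECs, whose medians were 1347 and 1491 UMIs. The EC shares were far above this level in both libraries. Neurons held little vascular RNA, however. Pericyte markers were at 17.8 and 10.1 CPM in control and CKO neurons, against 8814 and 7955 CPM in other ECs. The neuron shares are thus no measure of RNA from other vascular cells in EC nuclei. Among other vascular and glial labels the share was 20.3% and 23.3% in vascular smooth muscle cells (vSMCs), 10.3% and 7.69% among OPCs (precursors of oligodendrocytes), 0.849% and 1.71% among astrocytes, 4.81% and 5.01% in the cluster labelled glia and 0.663% and 0.156% among oligodendrocytes, control first. Pericytes had 5.97% and 13.6%, from 12 and 3 nuclei, and microglia 8.53% and 27.3%, from 11 and 3 nuclei. Unthinned, the intervals of each of these labels overlapped between the libraries. At 1000 UMIs the shares were 9.23% and 17.3% in vSMCs, with 167 and 48 nuclei left out. They were 0.572% and 4.64% in astrocytes, with 379 and 535 left out. The CKO values at equal depth were thus higher in these labels too. They have no interval and rest on 55 CKO vSMC nuclei and 109 CKO astrocyte nuclei. For OPCs they were 11.0% and 7.13%, with 203 and 150 left out, and for glia 4.45% and 4.82%, with 715 and 292 left out, while pericytes and microglia kept at most 14 nuclei.

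A cluster labelled CP_6 had a share of 18.9% for control and 12.6% for CKO nuclei, but from *Kif11* alone in 194 of 206 and 82 of 91 nuclei. At 1000 UMIs its shares were 8.54% for control and 9.87% for CKO nuclei, with 402 and 394 left out. Only 5 and 4 of its nuclei held UMIs of at least 2 rule genes. Among EC members *Kif11* was the sole rule gene in 11 of 271 and 41 of 842, so the EC shares did not rest on it.

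**Figure D2:**
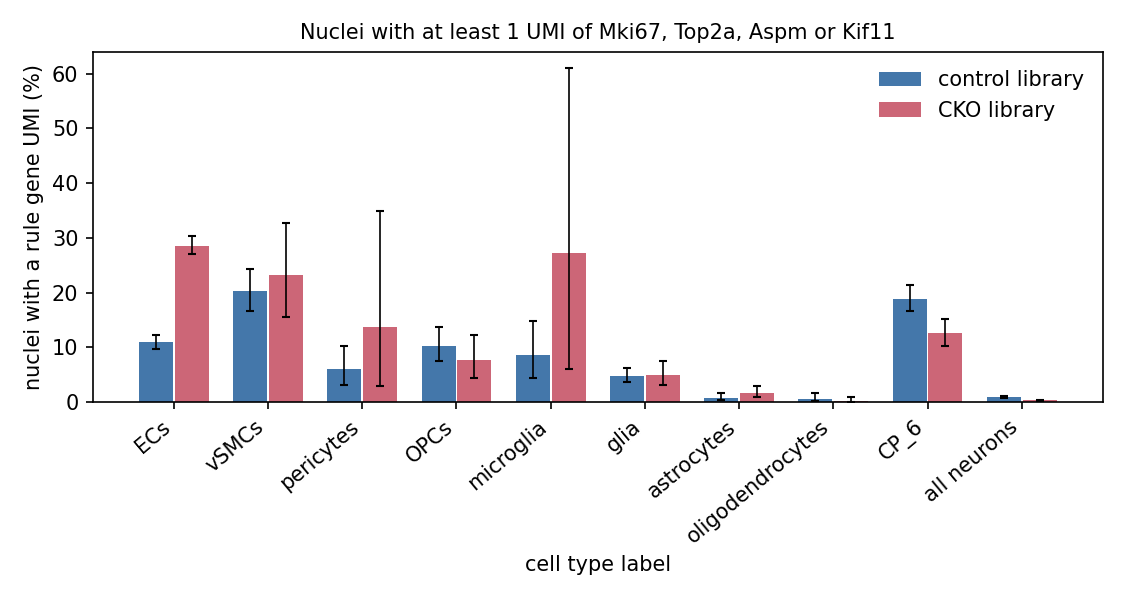
Percent of nuclei with at least 1 UMI of *Mki67*, *Top2a*, *Aspm* or *Kif11* (y axis) by cell type label (x axis), in the control and the CKO library. Bars are shares and error bars exact binomial 95% intervals. ECs stand at 10.9% and 28.6% and neurons at 0.948% and 0.311%, and labels with few nuclei, such as CKO microglia, have wide intervals.

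Genes outside the rule were compared between members and other ECs of the same library, with the rule genes left out of all totals. Of 10994 genes with at least 20 EC UMIs in each library, 273 were at least 2-fold higher in members in both libraries (2.48% of genes tested), and 4 were at most 0.5 times the level of other ECs in both (0.0364%). Against other ECs of matched depth 191 genes were 2-fold higher, 174 of them among the 273. Of the 273 genes, 101 were on a cell cycle list, out of 172 cell cycle genes tested. Members were chosen on genes of the same program in the same nuclei, so these counts describe the members and are no test.

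The mitotic apparatus stood highest. The 4 rule genes serve the same late steps, so the rank of these lists above replication lists is a description and no test. The kinesin and spindle list had a summed level of 1560 CPM in control members, 130 CPM in other control ECs, 1543 CPM in CKO members and 283 CPM in other CKO ECs, so the ratio of members to other ECs was 12.01 (10.9 to 13.2) for control and 5.45 (5.10 to 5.82) for CKO nuclei. All 28 of its tested genes were at least 2-fold higher in both libraries, against 2.48% of all genes, with median log2 ratios of 3.96 and 2.77 where all tested genes had medians of 0.22 and 0.07. *Prc1*, which bundles microtubules of the central spindle, was at 174 CPM in control members and 5.96 CPM in other control ECs, and at 131 and 15.2 CPM in the CKO library. *Nusap1*, a spindle microtubule protein, was at 102 and 5.96 CPM in the control and at 116 and 9.36 CPM in the CKO library. Members were above other ECs for both genes in both libraries.

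The kinetochore and checkpoint list, whose proteins attach chromosomes to the spindle, was at 1204 CPM in control members and 151 CPM in other control ECs, and at 1240 and 288 CPM in the CKO library. The ratios were 7.99 (7.29 to 8.77) and 4.30 (4.03 to 4.61), and 19 of 20 tested genes were at least 2-fold higher in both libraries. *Cenpf*, a kinetochore protein of late G2 and mitosis, was at 176 CPM in control members and 5.75 CPM in other control ECs, and at 158 and 17.4 CPM in the CKO library. *Cenpe*, a kinetochore motor, was at 102 and 9.37 CPM in the control and at 119 and 12.9 CPM in the CKO library. The gene that fell short was *Hjurp*, the chaperone of centromeric histone, with ratios of 1.97 and 1.60.

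The G2/M list was at 4245 CPM in control members and 1177 CPM in other control ECs, and at 4211 and 1558 CPM in the CKO library, with ratios of 3.61 (3.47 to 3.75) and 2.70 (2.62 to 2.79). Of its 47 tested genes 38 were at least 2-fold higher in both libraries and none was lower in both. *Hmgb2*, a chromatin protein of dividing cells, was at 592 and 151 CPM in the control and 494 and 169 CPM in the CKO library. For chromatin condensation genes the ratios were smaller, at 1.99 and 1.70, with 9 of 21 tested genes at least 2-fold higher in both. *Smc4*, a subunit of condensin, had ratios of 1.99 and 1.93.

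Genes of DNA replication were higher as well, by less than the kinesin and spindle, kinetochore and G2/M lists. Those lists hold genes of the late steps that the rule also drew on. The S phase list was at 1406 CPM in control members and 689 CPM in other control ECs, and at 1796 and 968 CPM in the CKO library, so the ratios were 2.04 (1.92 to 2.17) and 1.86 (1.78 to 1.94). Of 35 tested genes 15 were at least 2-fold higher in both libraries, and 32 were above other ECs in both, as were 5266 of all 10994 genes. Replication origin genes had ratios of 2.53 and 2.09, with 10 of 22 tested genes past 2-fold in both. *Pola1*, the catalytic subunit of the primase-polymerase, was at 87.7 CPM in control members and 27.1 CPM in other control ECs, and at 114 and 43.5 CPM in the CKO library. *Mcm7*, of the replicative helicase, had ratios of 2.55 and 2.20, and *Pcna*, the sliding clamp, 1.78 and 1.73. DNA repair genes had ratios of 2.68 and 2.38.

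Upstream regulators differed less as lists. E2F and DREAM genes, which control the transcription of the cell cycle genes, had ratios of 1.40 and 1.46. Of these, 1 of 13 tested genes passed 2-fold in both libraries, where 2.48% of all genes tested did. Cyclins and cyclin-dependent kinases were at 1585 CPM in control members and 1549 CPM in other control ECs, and at 1580 and 1269 CPM in the CKO library, though 7 of 14 tested genes were at least 2-fold higher in both. The most abundant of them was *Ccnd1*, the G1 cyclin D1, at 543 CPM in control members, 686 CPM in other control ECs, 602 CPM in CKO members and 483 CPM in other CKO ECs, so that it was lower in members in the control (ratio 0.792, 0.725 to 0.865) and higher in the CKO library (1.25, 1.17 to 1.33). MYC and ribosome genes had ratios of 1.37 and 1.31. The summed level of cell cycle inhibitors and quiescence genes was lower in members, with ratios of 0.852 and 0.863, and of 16 tested genes 9 were lower and 4 higher in both libraries, where 2290 of all 10994 genes were lower and 5266 higher. *Klf2*, a flow-induced transcription factor and the most abundant of them, stood at 0.856 and 0.800. *Cdkn2c*, a CDK inhibitor chosen after its values were seen, was the only one at least 2-fold higher in both, at 4.08 and 3.84.

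Outside all lists, 169 genes were at least 2-fold higher in both libraries. The 15 with the highest smaller ratio, among genes with at least 60 EC UMIs, held 7 histone genes (*H1f5*, *H2ac4*, *H2ac8*, *H2ac11*, *H2ac12*, *H2ac23* and *H2ac24*) and 8 others (*Fam83d*, *Stil*, *Depdc1a*, *Ska3*, *Espl1*, *Mastl*, *Lockd* and *Efcab11*). *Espl1* encodes separase, which cuts the cohesin between sister chromatids, *Mastl* a kinase of mitotic entry, *Ska3* a part of the kinetochore and *Stil* a factor of centriole duplication. *Lockd*, a long noncoding RNA gene, was at 67.8 CPM in control members and 1.28 CPM in other control ECs, and at 57.0 and 5.82 CPM in the CKO library. *H2ac24* was at 150 and 8.10 CPM in the control and 151 and 17.7 CPM in the CKO library.

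Replication-dependent histone genes supply the proteins that package new DNA. They were looked at as a group after these values had been seen. Of 60 such genes measured, 15 passed the UMI minimum, and 11 of the 15 were at least 2-fold higher in members in both libraries, against 2.48% of all genes tested. The 15 were all H1, H2A or H2B genes. Summed over the 60 genes, the level was 722 CPM in control members and 141 CPM in other control ECs, and 670 and 139 CPM in the CKO library. The ratios were 5.12 (4.61 to 5.69) and 4.82 (4.38 to 5.31). How fully the library kit captures histone RNA was not tested, so these levels cover only the transcripts counted. All 11 lie among the 13 tested genes on chromosome 13, between positions 21900592 and 23935581 of GRCm39, and neither of the 2 tested genes on chromosome 3 passed.

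The 4 genes lower by 2-fold or more in both libraries were *Fas*, *Irak3*, *Zbtb7c* and *Nat8f4*. *Fas*, a death receptor, was at 24.4 CPM in control members and 54.1 CPM in other control ECs, and at 11.4 and 25.03 CPM in the CKO library. The other 3 rested on few UMIs, with 2 to 5 in control members. Only 1 of the 4 genes was lower by 2-fold against other ECs of matched depth, and 1 in members with at least 2 rule UMIs, so the set was not stable.

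**Figure D3:**
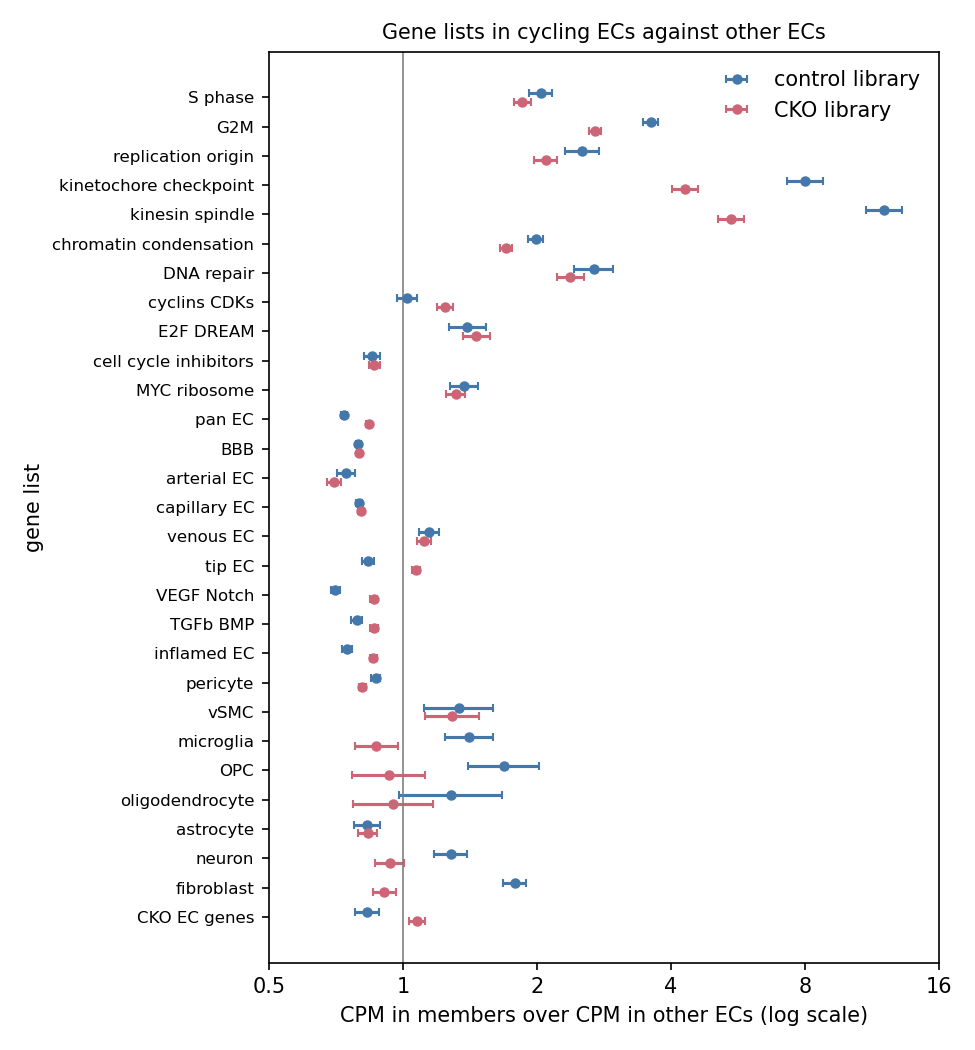
Ratio of the summed level of each gene list in members to that in other ECs of the same library (x axis, log scale) for the gene lists (y axis), with the control and the CKO library side by side. Bars are exact conditional binomial 95% intervals for counting error, and the grey line marks a ratio of 1. Kinesin and spindle genes lie farthest right, at 12.01 and 5.45, and the pan-endothelial list lies left of the line, at 0.738 and 0.839.

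After thinning to 1000 UMIs, the expected share of nuclei with UMIs of both lists was 61.0% in control members and 33.5% in other control ECs, and 73.2% and 45.2% in the CKO library. With G2/M UMIs in nearly every member, these shares say little on whether the lists meet in the same nuclei. For replication origin and kinesin genes, which were found in fewer nuclei, the share with both was 30.5% in control members and 2.53% in other control ECs, where the products of the separate shares were 25.8% and 2.38%. In the CKO library it was 40.5% and 8.44%, with products of 37.6% and 6.62%. The shares with both were thus somewhat above the products, in members and in other ECs, but these values have no interval. In control members with 1, 2 or 3, and 4 or more rule UMIs the shares with both were 12.3%, 29.2% and 55.3%. The products there were 11.4%, 25.5% and 53.3%. In the same classes of CKO members the shares were 24.5%, 41.9% and 55.4%, with products of 21.3%, 41.3% and 53.9%. A UMI of the S phase list was expected in 67.0% and 49.0% of nuclei in the control and in 77.4% and 57.7% in the CKO library, while without thinning these shares were 84.1% and 53.0%, and 91.3% and 63.0%. Thinning left out 58 members and 947 other ECs of the control and 167 members and 888 other ECs of the CKO library.

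The higher ratios in the control library came with a lower level in its other ECs. The G2/M level of members was 0.992 times as high in CKO as in control (0.959 to 1.03), whereas that of other ECs was 1.32 times as high (1.28 to 1.37). *Cenpf* was at 0.896 times its control level in CKO members and 3.03 times in other CKO ECs, and *Prc1* at 0.757 and 2.54 times. The S phase level was 1.28 times as high in CKO members and 1.40 times in other CKO ECs. *Hells*, a chromatin remodeler of S phase, was at 66.9 CPM in control members, 29.2 CPM in other control ECs, 133 CPM in CKO members and 84.7 CPM in other CKO ECs. Summed G2/M RNA was thus at a like level in members of both libraries, and CKO ECs without a rule UMI carried more of it. With members of at least 2 rule UMIs the G2/M ratio of CKO to control was 0.899, and with the median log2 ratio of genes set to 0 it was 1.19 in other ECs.

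All 271 control members and all 842 CKO members had a UMI of the 16 pan-endothelial markers, against 2.09% and 1.05% of neurons, 41.8% and 59.1% of pericyte-labelled nuclei and 92.7% and 93.2% of vSMC-labelled nuclei. Presence of a UMI thus hardly set members apart from vSMCs, so levels are given. The summed level was 14496 CPM in control members and 19647 CPM in other control ECs, and 14082 and 16788 CPM in the CKO library, so members had 0.738 and 0.839 times the level of other ECs. *Flt1*, a VEGF receptor, was at 2517 and 4328 CPM in the control and at 2142 and 3188 CPM in the CKO library, and *Cldn5*, the tight junction claudin, at 2191 and 2613 CPM and at 1671 and 2069 CPM. In vSMC-labelled nuclei the list was at 8168 and 8365 CPM. None of the 16 genes was past 2-fold in both libraries. Against the 5 other ECs nearest in depth to each member, the ratios of the list were 0.889 and 0.9503, so part of the difference moved with depth.

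Blood-brain barrier genes had ratios of 0.794 and 0.797, with 23 of 25 tested genes lower in both libraries, where 2290 of all 10994 genes were, and 0.929 and 0.898 at matched depth. *Slco1c1*, a thyroid hormone transporter of brain capillaries, was at 2390 and 3498 CPM in the control and 2366 and 3150 CPM in the CKO library. Among vessel types, arterial genes were lowest in members, with ratios of 0.746 (0.712 to 0.781) and 0.701 (0.677 to 0.725), and 0.787 and 0.721 at matched depth. *Sox17*, a transcription factor of arterial ECs, had ratios of 0.709 and 0.687. The summed venous list was higher in members, at 1.14 (1.09 to 1.204) and 1.12 (1.07 to 1.16). Its 11 tested genes had median log2 ratios of 0.34 and 0.17, where all genes tested had 0.22 and 0.07. The most UMIs in the list came from *Tmsb10*, an actin-binding thymosin, with 1.26 and 1.28. *Vwf*, by contrast, stood at 0.556 and 0.857, though at 1.01 in the CKO library at matched depth. Capillary genes stood at 0.797 and 0.807, and at 0.935 and 0.909 at matched depth. By ratio, *Cxcl12* fell furthest among the most abundant genes of the endothelial lists, at 0.345 and 0.513. This chemokine of the inflamed endothelium list was at 2066 CPM in other control ECs and 712 CPM in control members. In the CKO library it was at 1635 and 838 CPM. That list as a whole stood at 0.749 and 0.859, with 6 of 18 tested genes lower and 6 higher in both libraries (2290 and 5266 of all 10994 genes), and at 0.913 and 0.952 without *Cxcl12*, which was left out after its values were seen. The VEGF and Notch list stood at 0.706 and 0.860. At matched depth the ratios were 0.861 and 0.959 for the inflamed endothelium list and 0.830 and 0.959 for the VEGF and Notch list, nearer to 1.

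*Tgfbr1* itself was at 68.7 CPM in control members, 69.2 CPM in other control ECs, 74.3 CPM in CKO members and 54.6 CPM in other CKO ECs. The CKO level was 1.08 times the control level in members (0.829 to 1.42) and 0.789 times in other ECs (0.661 to 0.940), so UMI counts over the whole gene showed no loss in members. Which exons Cre removes is unknown here, and transcripts that lack them would still be counted, so these values do not check the genotype labels. *Tgfbr2*, the partner receptor, was at 373 and 401 CPM in control members and other ECs and at 674 and 792 CPM in the CKO library. TGF-beta and BMP genes had ratios of members to other ECs of 0.788 and 0.861, and of 0.893 and 0.931 at matched depth. Of 30 tested genes 13 were lower and 3 higher in both libraries, where 2290 and 5266 of all 10994 genes were. *Id1*, a target of BMP signaling, was at 570 and 879 CPM in the control and at 399 and 521 CPM in the CKO library, lower in members of both.

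EC genes that earlier work on these libraries had found far apart between the genotypes were read in both groups of ECs. They had been picked from ECs of these same libraries, so their direction in members is no independent support. The 12 that were higher in other CKO ECs than in other control ECs summed to 268 CPM in control members and 1304 CPM in CKO members, a ratio of 4.86 (4.31 to 5.48), and to 177 and 1186 CPM in other ECs, a ratio of 6.72 (6.24 to 7.24). *Nr5a2*, a nuclear receptor, was at 2.71 CPM in control members and 112 CPM in CKO members, and at 2.77 and 102 CPM in other ECs. *Tox3*, of the TOX family of HMG box factors, was at 36.2 and 201 CPM in members and 28.3 and 205 CPM in other ECs. The 11 that were lower summed to 811 and 77.7 CPM in members, a ratio of 0.0959 (0.0825 to 0.111), and to 1119 and 97.3 CPM in other ECs, a ratio of 0.0870. *Htra3*, a secreted protease, was at 116 and 6.91 CPM in members and 190 and 11.1 CPM in other ECs.

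Markers of other cell types were counted in the members for the whole of each list. Pericyte markers, led by *Rgs5*, summed to 7668 CPM in control members and 8814 CPM in other control ECs, and to 6444 and 7955 CPM in the CKO library, and 90.8% of control members and 96.8% of CKO members had a UMI of them, against 84.7% and 95.1% of other ECs. Members, which were deeper, thus held pericyte UMIs more often, at a lower share of all UMIs. In nuclei with at least 5 EC and mural marker UMIs, the median share of EC markers was 69.5% and 70.7% in members and 74.3% and 70.0% in other ECs, control first. The part of mural RNA in the results was not tested. In a split chosen after seeing the data, the member share was 10.5% and 29.4% in EC nuclei with more EC than mural marker UMIs, and 15.3% and 20.0% in the remaining EC nuclei, a ratio of 1.31 between the libraries whose interval, 0.894 to 1.92, included 1. Smooth muscle markers, led by *Acta2*, were higher in members, at 154 and 115 CPM in the control and 138 and 106 CPM in the CKO library, but at 0.911 times other control ECs at matched depth. Astrocyte markers were at 913 and 1100 CPM and at 878 and 1053 CPM.

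Summed microglial, OPC, oligodendrocyte, neuronal and fibroblast markers had ratios above 1 in the control and below 1 in the CKO library, a difference that was not tested. Neuronal markers, led by *Nrxn3*, were at 626 CPM in control members and 490 CPM in other control ECs, and at 409 and 437 CPM in the CKO library. OPC markers, led by *Lhfpl3*, were at 153 and 90.5 CPM and at 66.3 and 71.3 CPM, and oligodendrocyte markers, led by *Mbp*, at 68.7 and 53.5 CPM and at 55.3 and 58.2 CPM. The interval of the oligodendrocyte ratio in the control library, 0.981 to 1.67, included 1. In the CKO library the intervals of the OPC, oligodendrocyte and neuronal ratios included 1 as well. They were 0.770 to 1.12, 0.772 to 1.17 and 0.868 to 1.01. At matched depth the control ratios of the oligodendrocyte and OPC lists were 0.955 and 0.992. No marker of these lists was at 0 in members. Their part in the results was not tested. In EC nuclei with no UMI of microglial, OPC, oligodendrocyte, astrocyte or neuronal markers, the member shares were 6.26% for control and 23.6% for CKO nuclei, and the G2/M ratios were 6.18 and 3.21.

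The promoters of the members' genes were read for motifs known from cell cycle promoters, since these genes rose together. The windows run from 250 bases before to 50 bases after the first listed start of each gene (RefSeq, build GRCm38.p6). The cell cycle homology region (CHR, TTTGAA or TTCGAA) is bound by the DREAM and MuvB complexes, the CCAAT box by NF-Y, and TTTGGCGC, TTTCCCGC and TTTGGCGG are E2F-type motifs, all searched on both strands. A CHR was present in 44.4% of the 232 promoters matched to the 273 genes, in 14.0% of those of all genes tested and in 19.4% of 27025 promoters. CCAAT was present in 60.3%, 38.9% and 37.9%, and an E2F-type motif in 10.8%, 4.06% and 2.16%.

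The lists differed in CHR and E2F-type motifs, while CCAAT was present in 61.5% to 75.0% of promoters in all 4 lists named here. A CHR was present in 21 of 26 promoters of kinesin and spindle genes and in 32 of 44 of G2/M genes, but in 5 of 31 of S phase genes and 5 of 22 of replication origin genes. E2F-type motifs were present in 2 of 26 and 2 of 44 of the first pair and in 12 of 31 and 12 of 22 of the second. All 4 genes of the rule had both a CHR and a CCAAT box, as did 7.70% of all promoters. A match describes the letters of the window and is not a site of binding.

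The promoters of *Top2a*, *Cenpf* and *Prc1* are shown for the CHR with CCAAT, that of *Pola1* for an E2F-type motif, that of *H2ac24* for the histone genes, and that of *Nusap1* as one without a match. They were chosen for their values and for these motifs, and capitals mark the motifs on either strand. *Top2a* is on the minus strand at chr11:99024140-99024439, *Cenpf* on the minus strand at chr1:189688037-189688336, *Prc1* on the plus strand at chr7:80294201-80294500, *Pola1* on the minus strand at chrX:93632106-93632405, *H2ac24* on the minus strand at chr13:21833426-21833725 and *Nusap1* on the plus strand at chr2:119618048-119618347, all on GRCm38.p6. *Top2a* holds 4 CHR and 6 CCAAT matches, *Cenpf* 1 and 2, and *Prc1* 1 and 1.
Top2a: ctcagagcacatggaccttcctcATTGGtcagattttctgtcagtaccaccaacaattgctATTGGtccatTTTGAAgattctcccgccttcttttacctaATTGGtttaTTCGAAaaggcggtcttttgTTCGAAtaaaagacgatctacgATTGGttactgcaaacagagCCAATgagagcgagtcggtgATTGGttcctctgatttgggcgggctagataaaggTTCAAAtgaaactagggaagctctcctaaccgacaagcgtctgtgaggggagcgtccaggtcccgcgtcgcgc
Cenpf: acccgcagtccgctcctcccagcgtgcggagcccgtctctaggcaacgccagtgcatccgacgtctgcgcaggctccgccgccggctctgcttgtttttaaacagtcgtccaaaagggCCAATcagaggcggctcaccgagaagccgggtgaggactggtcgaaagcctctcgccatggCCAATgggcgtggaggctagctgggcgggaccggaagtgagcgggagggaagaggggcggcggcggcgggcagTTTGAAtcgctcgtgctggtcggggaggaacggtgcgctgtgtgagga
Prc1: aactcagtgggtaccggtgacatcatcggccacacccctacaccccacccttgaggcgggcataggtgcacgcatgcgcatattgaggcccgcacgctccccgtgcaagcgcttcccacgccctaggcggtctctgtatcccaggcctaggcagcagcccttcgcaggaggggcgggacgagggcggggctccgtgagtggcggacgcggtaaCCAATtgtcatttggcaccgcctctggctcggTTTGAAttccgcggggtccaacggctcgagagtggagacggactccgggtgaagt
Pola1: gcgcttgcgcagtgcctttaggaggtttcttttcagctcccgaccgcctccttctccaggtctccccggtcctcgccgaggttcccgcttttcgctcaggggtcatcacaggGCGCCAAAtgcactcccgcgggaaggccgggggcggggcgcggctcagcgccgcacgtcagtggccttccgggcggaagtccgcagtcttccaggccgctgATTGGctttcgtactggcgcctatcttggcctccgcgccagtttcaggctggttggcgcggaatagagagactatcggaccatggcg
H2ac24: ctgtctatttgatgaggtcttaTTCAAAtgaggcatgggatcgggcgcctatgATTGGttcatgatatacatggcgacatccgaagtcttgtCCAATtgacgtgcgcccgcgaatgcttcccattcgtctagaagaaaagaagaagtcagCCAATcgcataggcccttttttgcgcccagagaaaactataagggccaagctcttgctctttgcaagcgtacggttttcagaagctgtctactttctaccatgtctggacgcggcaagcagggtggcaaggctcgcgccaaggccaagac
Nusap1: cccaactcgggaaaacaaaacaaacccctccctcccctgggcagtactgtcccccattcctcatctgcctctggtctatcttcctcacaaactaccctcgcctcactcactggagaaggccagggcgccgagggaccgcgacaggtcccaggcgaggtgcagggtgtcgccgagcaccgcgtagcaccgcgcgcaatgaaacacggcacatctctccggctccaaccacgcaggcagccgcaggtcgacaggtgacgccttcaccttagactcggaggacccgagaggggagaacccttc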

How the data were processed

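The authors prepared nuclei of brain vascular fragments with the PIPseq kit, aligned and counted reads with PIPseeker, removed empty droplets and background with CellBender, removed doublets with SOLO and curated mixed nuclei by hand. What was deposited is a table of integer UMI counts for every nucleus, with cell type labels by the authors. The paper names GRCm39 and the submitters' processing notes name mm10 and Seurat. Gene positions are from GENCODE M39 on GRCm39, and promoters keep their own build. Retina nuclei were only counted. Members and gene lists were chosen with earlier results of these data known. UMIs were summed over nuclei and divided by their total without the rule genes. Shares have exact binomial intervals, the ratio of shares a delta-method interval on the log scale, and ratios of summed UMIs exact conditional binomial intervals. Log2 ratios used 0.5 added UMIs. Thinned shares are exact hypergeometric expectations. Genes named are the rule genes, *Tgfbr1* and *Tgfbr2*, up to 4 genes of each list with the most EC UMIs, the 15 highest and 10 lowest genes outside the lists with at least 60 UMIs, and listed EC genes that differed between genotypes with at least 5 UMIs in members. The functions were tested on simulated data. Scripts ran in Python 3.11.15 with pandas 2.3.3, scipy 1.17.1, numpy 2.4.6 and, for figures, matplotlib 3.10.9.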

Additional observations from a re-analysis of the deposited data

Results flagged for a closer look

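For 4 gene lists, members lay above other ECs in one library and below them in the other, with intervals on opposite sides of 1. The difference between libraries was not tested. In EC nuclei without mural marker UMIs, with 24 control and 26 CKO members, all but the tip cell list changed direction in a library: the ratios were 0.696 and 1.72 for microglial markers, 1.14 and 1.11 for fibroblast markers, and 0.477 and 0.746 for the selected EC genes. For tip cell genes the ratio of members to other ECs was 0.835 in the control (4670 and 5593 CPM) and 1.07 in the CKO library (6204 and 5786 CPM). *Nid2*, a basement membrane nidogen, stood at 0.794 and 1.22. For microglial markers the ratio was 1.41 in the control (309 and 220 CPM) and 0.871 in the CKO library (181 and 208 CPM). For fibroblast markers, led by *Col1a2*, it was 1.78 in the control (1458 and 818 CPM) and 0.908 in the CKO library (641 and 706 CPM), and *Col3a1*, a fibrillar collagen, stood at 2.07 and 1.01. For EC genes known to differ between the genotypes in these libraries it was 0.833 in the control (1079 and 1296 CPM) and 1.08 in the CKO library (1381 and 1284 CPM). This sum mixes 12 genes that are higher and 11 that are lower in CKO ECs, and each set went the same way in both libraries: 268 and 177 CPM, and 1304 and 1186 CPM, for the higher genes, and 811 and 1119 CPM, and 77.7 and 97.3 CPM, for the lower genes. The opposite directions of the sum follow from which set holds more UMIs in each library. Without glial or neuronal marker UMIs its ratios were 0.917 and 0.951.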

How the results depend on the processing

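The CKO share of members was above the control share under every alternative run, though for the lowest ratio, 1.31, the interval of 0.894 to 1.92 included 1, and cell cycle lists of S phase, G2/M, replication origin, kinetochore, kinesin and spindle, chromatin condensation and DNA repair stayed above 1 in both libraries, while pan-endothelial, barrier and arterial lists stayed below 1. Sizes were less stable. Of 681 list ratios under alternatives 367 stayed within the counting interval, 306 moved beyond it and 8 changed direction from a ratio whose interval was off 1. Oligodendrocyte ratios, whose intervals included 1, also crossed it, at 0.955 in control nuclei against the nearest other ECs, and at 0.609 and 1.07 with nuclei weighted equally. Lists left with no UMIs in a group gave no value. Control ratios of cell cycle lists moved most where nuclei with mural marker UMIs were left out, up to 66.9 for kinesin and spindle genes, but only 24 members of 359 control ECs and 26 of 127 CKO ECs remained there. For all values below the cause was not tested, save that a stricter rule chooses other nuclei and a stricter UMI minimum tests fewer genes. Genes with few UMIs in control members have wide intervals, and with 1 library per genotype no spread between animals can be given. No paired analysis was possible because each brain group has 1 library.

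With at least 2 summed UMIs the share of members was 5.66% for control and 17.4% for CKO ECs, a ratio of 3.07. Control list ratios moved to S phase 2.40, G2/M 4.72, replication origin 3.07, kinetochore 11.2, kinesin and spindle 16.9, chromatin condensation 2.38, DNA repair 3.47, E2F and DREAM 1.54, MYC and ribosome 1.52, pan-endothelial 0.664, barrier 0.719, arterial 0.678, capillary 0.709, tip cell 0.767, VEGF and Notch 0.624, TGF-beta and BMP 0.738, inflamed endothelium 0.696, pericyte 0.786, astrocyte 0.768, neuronal 1.56, fibroblast 1.95, selected EC genes 0.772. CKO list ratios moved to S phase 2.05, G2/M 3.21, replication origin 2.28, kinetochore 5.25, kinesin and spindle 6.83, chromatin condensation 1.89, DNA repair 2.75, cyclins 1.32, E2F and DREAM 1.58, pan-endothelial 0.815, barrier 0.768, arterial 0.643, capillary 0.772, VEGF and Notch 0.837, TGF-beta and BMP 0.839, inflamed endothelium 0.837, pericyte 0.764, oligodendrocyte 0.691.

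With UMIs of at least 2 rule genes the share of members was 4.36% for control and 13.0% for CKO ECs, a ratio of 2.97. Beyond the control interval were S phase 2.50, G2/M 5.17, replication origin 3.25, kinetochore 12.7, kinesin and spindle 19.0, chromatin condensation 2.50, DNA repair 3.80, E2F and DREAM 1.57, inhibitors 0.799, MYC and ribosome 1.49, pan-endothelial 0.649, barrier 0.703, arterial 0.672, capillary 0.700, tip cell 0.743, VEGF and Notch 0.614, TGF-beta and BMP 0.736, inflamed endothelium 0.667, pericyte 0.768, astrocyte 0.750, neuronal 1.77, fibroblast 1.91, selected EC genes 0.771. Beyond the CKO interval were S phase 2.02, G2/M 3.40, replication origin 2.26, kinetochore 5.57, kinesin and spindle 7.31, chromatin condensation 1.95, DNA repair 2.85, cyclins 1.34, E2F and DREAM 1.60, pan-endothelial 0.814, barrier 0.769, arterial 0.640, capillary 0.775, VEGF and Notch 0.833, TGF-beta and BMP 0.837, inflamed endothelium 0.836, pericyte 0.752, oligodendrocyte 0.444, neuronal 0.848.

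Without *Mki67* in the rule the share of members was 26.1% for CKO ECs. Control list ratios moved to barrier 0.781, capillary 0.779.

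Without *Top2a* in the rule the share of members was 6.42% for control and 17.5% for CKO ECs. Beyond the control interval were S phase 2.25, G2/M 4.41, replication origin 2.86, kinetochore 10.3, kinesin and spindle 15.6, chromatin condensation 2.22, DNA repair 3.20, pan-endothelial 0.693, barrier 0.751, arterial 0.695, capillary 0.758, tip cell 0.793, VEGF and Notch 0.666, TGF-beta and BMP 0.762, inflamed endothelium 0.705, pericyte 0.831, neuronal 1.53. Beyond the CKO interval were S phase 1.94, G2/M 3.13, kinetochore 5.04, kinesin and spindle 6.56, chromatin condensation 1.85, DNA repair 2.66, pan-endothelial 0.826, barrier 0.786, arterial 0.655, VEGF and Notch 0.845, inflamed endothelium 0.839, pericyte 0.773, oligodendrocyte 0.531.

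In EC nuclei of at least 1000 UMIs the share of members was 14.5% for control and 35.7% for CKO ECs. Control list ratios moved to G2/M 3.45, pan-endothelial 0.803, barrier 0.843, arterial 0.798, capillary 0.839, VEGF and Notch 0.760, TGF-beta and BMP 0.821, inflamed endothelium 0.783, selected EC genes 0.895. CKO list ratios moved to E2F and DREAM 1.35, inhibitors 0.898, pan-endothelial 0.886, barrier 0.841, capillary 0.849, VEGF and Notch 0.906, TGF-beta and BMP 0.889, inflamed endothelium 0.892, pericyte 0.833.

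In EC nuclei without glial or neuronal marker UMIs the share of members was 6.26% for control and 23.6% for CKO ECs, a ratio of 3.77. Beyond the control interval were S phase 3.84, G2/M 6.18, replication origin 6.02, kinetochore 13.5, kinesin and spindle 32.5, chromatin condensation 3.07, DNA repair 6.48, cyclins 1.36, E2F and DREAM 2.34, inhibitors 0.761, MYC and ribosome 1.76, pan-endothelial 0.715, barrier 0.836, arterial 0.790, capillary 0.840, venous 1.41, tip cell 0.756, VEGF and Notch 0.646, TGF-beta and BMP 0.754, inflamed endothelium 0.699, pericyte 0.779, vSMC 1.09, fibroblast 2.63, selected EC genes 0.917. Beyond the CKO interval were S phase 2.12, G2/M 3.21, replication origin 2.39, kinetochore 4.65, kinesin and spindle 5.94, chromatin condensation 1.964, cyclins 1.40, E2F and DREAM 2.00, inhibitors 0.911, MYC and ribosome 1.42, barrier 0.753, arterial 0.744, capillary 0.766, tip cell 1.19, TGF-beta and BMP 0.830, pericyte 0.836, fibroblast 0.552. Direction changed in CKO for vSMC 0.933, selected EC genes 0.951.

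In EC nuclei without mural marker UMIs the share of members was 6.69% for control and 20.5% for CKO ECs, a ratio of 3.06. Control list ratios moved to S phase 12.3, G2/M 15.3, replication origin 13.4, kinetochore 27.2, kinesin and spindle 66.9, chromatin condensation 6.39, DNA repair 15.2, cyclins 1.83, E2F and DREAM 5.27, inhibitors 0.923, MYC and ribosome 2.14, pan-endothelial 0.690, barrier 0.833, arterial 0.712, capillary 0.848, venous 1.36, tip cell 0.419, VEGF and Notch 0.573, TGF-beta and BMP 0.903, inflamed endothelium 0.905, OPC 17.9, neuronal 2.97, fibroblast 1.14, selected EC genes 0.477. CKO list ratios moved to S phase 2.91, G2/M 5.19, replication origin 2.35, kinetochore 7.49, kinesin and spindle 11.3, chromatin condensation 2.86, DNA repair 4.49, cyclins 1.12, E2F and DREAM 4.40, MYC and ribosome 1.57, pan-endothelial 0.682, barrier 0.566, arterial 0.454, capillary 0.729, venous 1.02, tip cell 1.15, VEGF and Notch 0.707, TGF-beta and BMP 0.740, inflamed endothelium 0.820, astrocyte 0.639, neuronal 0.139. Reversed control list ratios were microglial 0.696. Reversed CKO list ratios were microglial 1.72, fibroblast 1.11, selected EC genes 0.746.

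Against the 5 other ECs nearest in depth, beyond the control interval were kinesin and spindle 10.5, E2F and DREAM 1.24, inhibitors 0.927, pan-endothelial 0.889, barrier 0.929, arterial 0.787, capillary 0.935, venous 1.31, tip cell 0.908, VEGF and Notch 0.830, TGF-beta and BMP 0.893, inflamed endothelium 0.861, pericyte 0.902, oligodendrocyte 0.955, astrocyte 0.755, neuronal 1.14, fibroblast 1.40, selected EC genes 0.891. Beyond the CKO interval were S phase 1.98, G2/M 2.98, replication origin 2.33, kinetochore 5.21, chromatin condensation 1.80, DNA repair 2.63, cyclins 1.31, E2F and DREAM 1.30, inhibitors 0.913, pan-endothelial 0.9503, barrier 0.898, capillary 0.909, venous 1.195, tip cell 1.16, VEGF and Notch 0.959, TGF-beta and BMP 0.931, inflamed endothelium 0.959, pericyte 0.853, OPC 0.540, oligodendrocyte 0.771, neuronal 0.681, fibroblast 0.791, selected EC genes 1.12. Direction changed in control for vSMC 0.911, OPC 0.992.

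With nuclei weighted equally, control list ratios moved to S phase 2.84, G2/M 5.02, replication origin 3.74, kinetochore 11.0, kinesin and spindle 19.8, chromatin condensation 2.54, DNA repair 4.45, cyclins 1.12, E2F and DREAM 2.11, inhibitors 0.748, pan-endothelial 0.671, barrier 0.747, capillary 0.765, VEGF and Notch 0.641, TGF-beta and BMP 0.755, inflamed endothelium 0.710, pericyte 0.901, oligodendrocyte 0.609, astrocyte 0.991, neuronal 1.87, fibroblast 1.65. CKO list ratios moved to S phase 2.22, G2/M 3.06, replication origin 2.49, kinetochore 4.88, kinesin and spindle 6.28, chromatin condensation 1.94, DNA repair 2.92, E2F and DREAM 1.92, inhibitors 0.827, MYC and ribosome 1.42, pan-endothelial 0.783, barrier 0.734, arterial 0.664, capillary 0.757, venous 1.07, tip cell 1.11, VEGF and Notch 0.820, TGF-beta and BMP 0.827, inflamed endothelium 0.825, pericyte 0.770, vSMC 1.06, astrocyte 0.763, neuronal 0.833, fibroblast 0.779.

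Genes at least 2-fold higher numbered 126 with at least 50 UMIs, 382 with at least 10 UMIs, 397 with at least 2 summed UMIs and 191 against the nearest other ECs, 174 of them among the 273. Genes at least 2-fold lower numbered 2 with at least 50 UMIs, 32 with at least 10 UMIs, 15 against the nearest other ECs and 37 with at least 2 summed UMIs, and in each of the last pair only 1 of the 4 named genes remained. Of 887 values of named genes 714 stayed within the interval, 161 moved and 12 changed direction, all against the nearest other ECs. In the control library these were *Acta2* at 0.876, *Dcn* at 0.865, *Slc16a1* at 1.08, *Tek* at 1.00 and *Tnr* at 0.928. In the CKO library these were *Adgrl4* at 1.09, *Foxo1* at 1.01, *Kdr* at 1.07, *Slc7a1* at 1.03, *Slc7a5* at 1.04, *Tox* at 0.970 and *Vwf* at 1.01. The CKO over control ratio in members with at least 2 summed UMIs was 1.199 for S phase and 0.899 for G2/M genes. With the median log2 ratio of genes set to 0, the ratio in other ECs was 1.27 for S phase, 1.19 for G2/M and 6.06 for the 12 selected EC genes that were higher.

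The alternatives that follow were chosen after seeing the data. Without *Cxcl12* the inflamed endothelium ratios were 0.913 and 0.952. In EC nuclei with at least as many mural as EC marker UMIs the shares were 15.3% and 20.0%, a ratio of 1.31 (0.894 to 1.92) on 38 and 51 members. In EC nuclei with a Y-linked UMI and no *Xist* the ratio was 3.20 (2.34 to 4.37), with shares of 8.64% and 22.3% at 1000 UMIs.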
